A study of Mus musculus with 64 samples.

Results

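A set of 49 genes of the cell division cycle was followed in mice labelled as Myc knockout and in wild-type mice, through 3 tissues: omental fat, the liver and skeletal muscle. They are the rows of the deposited table whose NCBI mouse gene ID belongs to a fixed list of symbols, and all 49 were found among 36332 gene IDs. The list holds 18 replication genes (4 regulators of entry into S phase, 9 factors that license and unwind origins, 5 genes of nucleotide supply and the sliding clamp) and 31 mitotic genes (transcription factors, cyclins and kinases, checkpoint, centromere, spindle and cytokinesis genes). The data are 64 RNA sequencing libraries in 12 groups, from these tissues, 2 ages (5 and 20 months) and 2 genotypes, knockout (KO) and wild type (WT). Adipose tissue and liver each had 6 libraries per genotype at 5 months and 5 at 20 months, while muscle had 4 (KO) and 6 (WT) in the younger and 5 per genotype in the older mice. The KO mice are labelled as a cross between a line with the allele Gt(ROSA)26Sortm1(cre/ERT2)Tyj and a line with the allele Myctm2Fwa, on B6.129 and B6.129S6 backgrounds, in which a tamoxifen-activated Cre driven from the widely active Rosa26 locus removes a floxed Myc, and the WT mice as C57/B6. Both genotypes share the tamoxifen treatment, 5 daily injections of 75 mg/kg in corn oil at weaning once they weighed 15 g, so no group is free of tamoxifen and the genotypes also differ in Cre and strain background. Libraries are called here by their codes, in which K or W is the genotype, F, L or S the tissue and the last digits the number of the library. The codes of the older mice hold 18 where every other label gives 20 months, and 20 months is used. The labels do not say which libraries come from separate mice, so p-values measure the spread between these libraries.

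A cell that divides makes these transcripts in successive waves. E2F factors switch on the cyclins E, the MCM helicase, its loaders and the enzymes that make deoxynucleotides as the cell enters S phase, and later FOXM1, MYBL2 and the cell cycle complexes that read CHR elements switch on cyclin B, CDK1 and the machinery of the spindle. MYC is known as a driver of entry into S phase in cultured cells, but fat, liver and muscle of adult mice hold few dividing cells, so that these transcripts come from a small and mixed share of the tissue. In bulk tissue, fewer dividing cells and less RNA per cell cannot be told apart.

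The libraries held 15.4 to 28.5 M reads on genes, with a median of 19.6 M, and values are given in the deposited unit, headed CPM. Their column sums were 0.529 to 1.64 M and not 1 M, so the unit was scaled by a factor per library, lowest in adipose tissue. Myc itself was checked first. In adipose tissue at 5 months Myc was at 17.7 ± 5.11 CPM in WT (SD, n = 6) and 5.76 ± 2.91 in KO (n = 6), and at 20 months at 11.97 ± 3.03 and 7.36 ± 1.76 (n = 5 each). In liver it was at 19.6 ± 10.3 and 2.59 ± 1.06 at 5 months and at 5.87 ± 0.975 and 2.11 ± 0.707 at 20 months. In muscle it was at 29.1 ± 27.1 in WT and 10.2 ± 5.21 in KO at 5 months and at 7.91 ± 3.21 and 5.98 ± 3.83 at 20 months. KO was lower than WT in adipose tissue and liver at 5 months (limma, log2 fold change -1.52, adjusted p 0.0170, and -2.38, adjusted p 0.00093), and the groups did not overlap in liver at 20 months. KO and WT overlapped in adipose tissue at 20 months and in muscle at both ages. Myc RNA does not separate the genotypes there, which bears on the KO against WT comparisons of those groups. The defining markers of each tissue were present: the summed adipocyte markers reached 6404 to 24719 CPM in adipose tissue, hepatocyte markers 101309 to 209858 CPM in liver and muscle fibre markers 72066 to 107352 CPM in muscle. Libraries labelled adipose also held epididymis markers, at 6559 CPM in K5F4284, 4179 in K5F5248, 987 in K5F5218 and 958 in W5F5299, and at 0 to 0.918 CPM in the other 18. Xist, the RNA of the inactive X chromosome, marked 12 libraries, 4 in each tissue, all at 5 months and from both genotypes. These had 0 reads of the Y chromosome genes Ddx3y, Uty, Kdm5d and Eif2s3y, and every other library had at least 1619. By these genes the 5-month groups mix females and males and the 20-month groups hold males alone. Every comparison of ages thus also differs in sex, except in the fits without the Xist libraries.

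In 2 libraries nearly all of the 49 genes were high, and they bear on every comparison that uses them. The first was W5F5006, adipose tissue of a WT mouse of 5 months. Its 18 replication genes summed to 360.2 CPM, against 144 to 175 in the other 5 libraries of its group, and its 31 mitotic genes to 332.8 CPM against 60.5 to 103. Mki67, which codes for the Ki-67 protein that coats mitotic chromosomes, was at 35.1 CPM there and at 3.25 to 8.86 in the others. Top2a, the topoisomerase that untangles sister DNA, was at 30.7 CPM against at most 7.35, and Ccnb2, a cyclin B, at 10.4 against at most 2.36. Tk1, which salvages thymidine, was at 16.9 CPM against at most 3.60. W5F5006 was the highest of all 22 adipose libraries for 46 of the 49 genes, while it was the highest for 3.45% of the 27760 genes with a read in adipose tissue. The exceptions were E2f1, Mcm7 and the centrosome kinase Nek2. Against the median of the rest of its group the median ratio was 5.46 over the 31 mitotic genes and 2.96 over the 18 replication genes.

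The second was K18S48, muscle of a KO mouse of 20 months. Its mitotic genes summed to 159.0 CPM against 17.7 to 28.04 in the other 4 libraries of its group, and its replication genes to 184.6 against 126 to 140. Mki67 was at 36.9 CPM against at most 2.73, Top2a at 12.9 against at most 1.27, and Cenpe, a kinesin of the kinetochore, at 3.35 against at most 0.107. Mcm2, a subunit of the helicase, was at 12.5 CPM against at most 11.3, and Rrm1, the large subunit of ribonucleotide reductase, at 45.3, inside the range of the others. It was the highest muscle library for 39 of the 49 genes (29 of 31 mitotic, 10 of 18 replication), and for 4.63% of the 24041 genes with a read in muscle. The excess was uneven: the median ratio to the rest of its group was 10.3 over the 30 mitotic genes with a read in the others and 2.17 over the 18 replication genes. The ratios ran from 1.53 to 56.8 and from 0.913 to 18.6. Some mitotic genes had few reads in the other 4 libraries (Cenpe 1, 0, 1 and 2), which makes their ratios large and unsure.

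**Figure D1:**
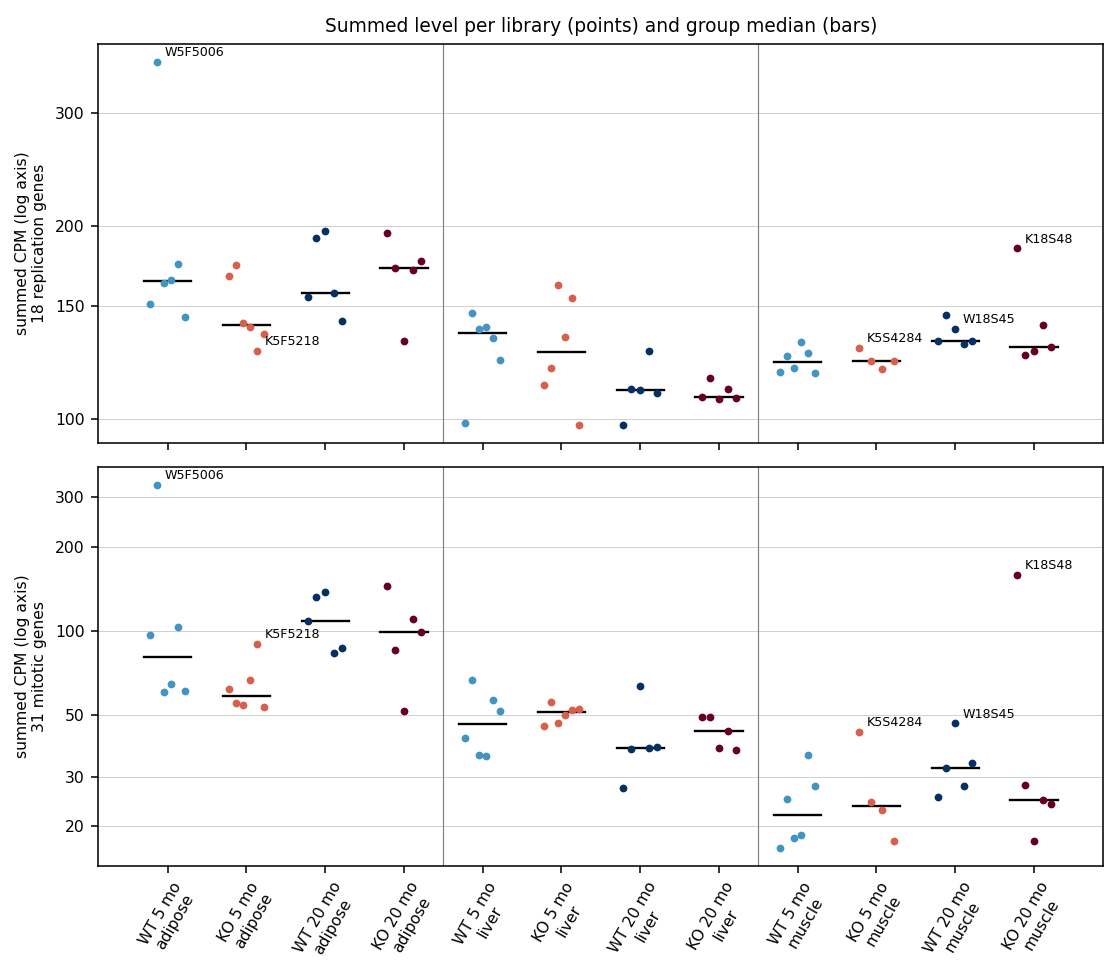
Summed CPM (log axis) of the 18 replication genes (above) and the 31 mitotic genes (below) in each of the 64 libraries, by group, with bars at group medians. W5F5006 (360.2 and 332.8 CPM) lies above the other adipose libraries in both sums and K18S48 (184.6 and 159.0 CPM) above the other muscle libraries.

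**Figure D2:**
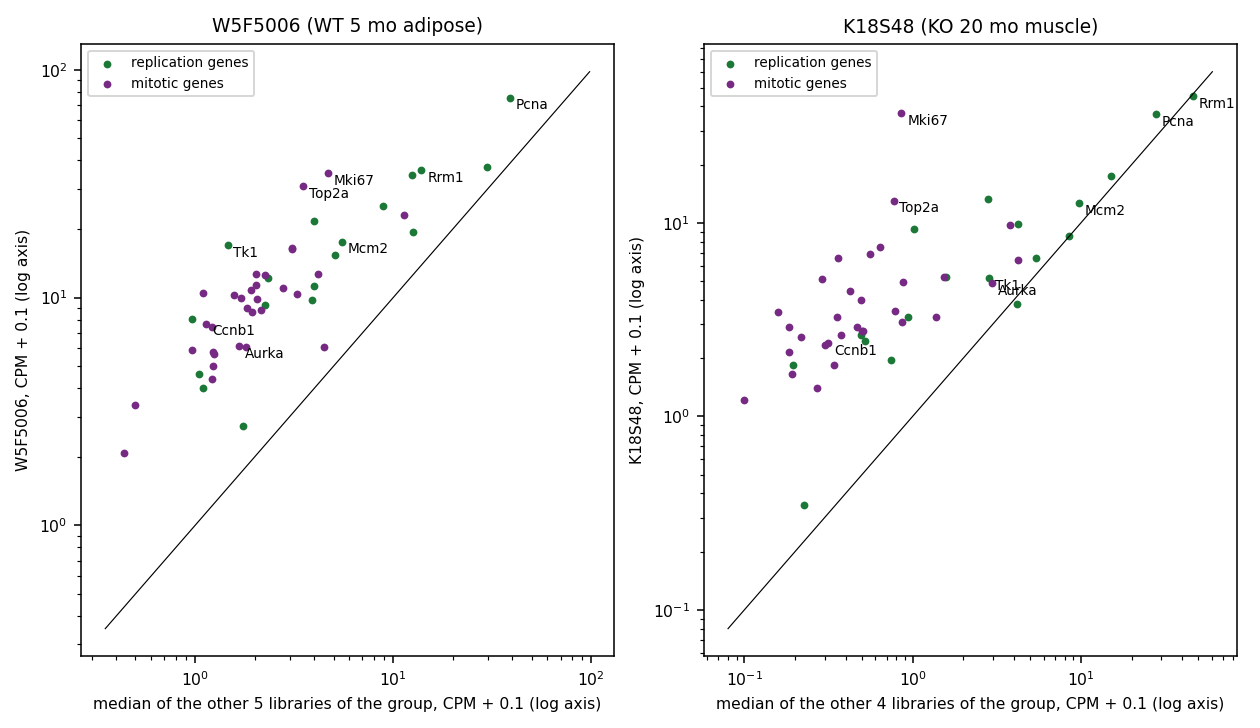
CPM + 0.1 of each of the 49 genes in W5F5006 (left) and in K18S48 (right), against the median of the other libraries of the same group (both axes log); the line marks equal levels. Most mitotic genes lie far above the line (median ratios 5.46 in W5F5006 and 10.3 in K18S48, lowest 1.36 and 1.53). In K18S48 the replication genes Rrm1 and Mcm2 lie near it.

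Markers of other cells differed between these libraries. The 7 granulocyte precursor markers (Mpo, Elane, Prtn3, Ctsg, Camp, Ltf and Ngp), genes of neutrophils forming in bone marrow, summed to 400 CPM in K18S48 and to at most 2.54 in the other 4 libraries of its group. Ngp was at 174 CPM, Ltf at 83.8 and Mpo at 46.8 in K18S48. The next highest granulocyte sums in muscle were 64.1 CPM in W18S45 and 45.5 in K5S4284, which also had the next highest mitotic sums, 46.6 and 43.5 CPM. The erythroid markers of K18S48 summed to 1558 CPM. In W5F5006 the granulocyte precursor sum was 13.9 CPM, within its group's range of 9.38 to 38.7 and mostly Prtn3 (12.6 CPM). Its B cell sum of 27.04 CPM was the lowest of the adipose libraries. Its macrophage sum of 1289 CPM was the highest of its group (703 to 1181 in the others), and other adipose groups reached 2882 CPM. Its hepatocyte marker sum of 476 CPM was the lowest of its group (2068 to 4881 in the others). Over the adipose libraries Cyp2e1 had a median of 1086 CPM, Alb of 15.5, and Apoa1, Serpina1a and Ttr of at most 1.37. The adipose sums of the hepatocyte list are thus mainly Cyp2e1 and no measure of hepatocytes. In adipose tissue the granulocyte precursor sums of K5F4284 and K5F5248, 197 CPM each, were nearly all Ltf (187 and 186 CPM). These are the libraries with the highest epididymis markers. Mpo, Ctsg, Camp and Ngp reached at most 0.433 CPM in any adipose library. The adipose sums of this list are therefore no measure of granulocyte precursors. The part of these cells in the levels of the 49 genes was not tested.

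**Figure D3:**
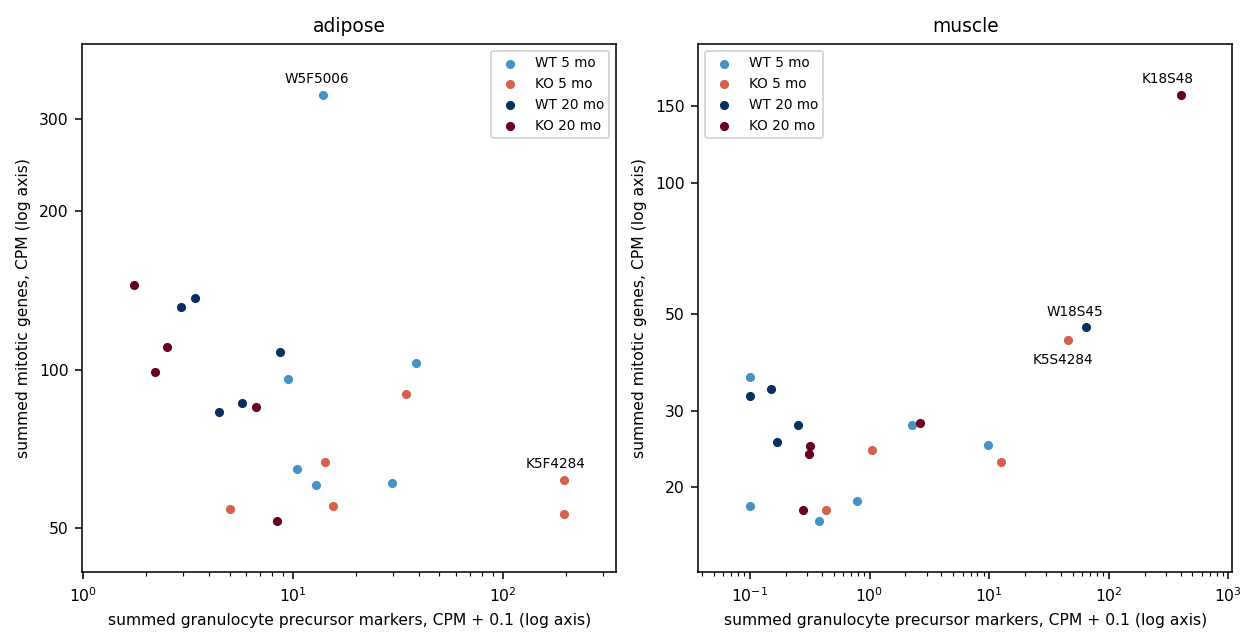
Summed CPM of the 31 mitotic genes against summed CPM + 0.1 of the 7 granulocyte precursor markers (both axes log) in the adipose and muscle libraries, colored by group. K18S48 (400 and 159.0 CPM) leads both axes in muscle, whereas W5F5006 is high only on the mitotic axis in adipose tissue, where the 2 highest marker sums (197 CPM) are nearly all Ltf.

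Across the 3 tissues, the replication genes summed to a median of 164.1 CPM in adipose tissue (127.7 to 360.2, 22 libraries), 114.5 in liver (97.9 to 161.9, 22 libraries) and 128.4 in muscle (118.1 to 184.6, 20 libraries). The mitotic genes summed to 85.8 CPM in adipose tissue (51.6 to 332.8), 46.2 in liver (27.4 to 66.7) and 25.2 in muscle (16.7 to 159.0). Per 1 M recovered reads the mitotic medians were 129.8, 33.97 and 22.4, and the replication medians 243.8, 90.1 and 108.04, so the distance of adipose tissue from the others depends on the scale.

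The levels of the mitotic index genes in the 12 groups are given as medians over the libraries of each group. Mki67 in adipose tissue had a median of 5.80 CPM in WT at 5 months (3.25 to 35.1), 3.24 in KO at 5 months (2.51 to 8.79), 14.3 in WT at 20 months (8.13 to 18.8) and 10.8 in KO at 20 months (3.92 to 19.7). In liver its 4 medians were 1.28, 1.36, 1.301 and 1.18 CPM in the same order, and in muscle 0.713, 1.36, 0.606 and 0.859. Top2a had medians of 4.40, 2.57, 10.2 and 6.93 CPM in adipose tissue, 0.964, 0.954, 0.975 and 0.719 in liver, and 0.531, 0.974, 0.304 and 0.982 in muscle. In adipose tissue both genes had their higher medians at 20 months, with ranges that overlapped those at 5 months. Ccnb1, the cyclin that starts mitosis with CDK1, had medians of 1.06, 1.06, 1.93 and 1.45 CPM in adipose tissue and of at most 0.432 in liver and 0.239 in muscle, where some libraries had no read. Cdk1 had medians of 2.85, 2.14, 3.33 and 2.92 CPM in adipose tissue, 1.10, 1.17, 1.05 and 0.614 in liver, and 0.378, 0.490, 0.150 and 0.127 in muscle. Neither gene had a group apart from the rest in any tissue.

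Of the replication index genes, Pcna had medians of 43.5, 37.1, 36.0 and 54.9 CPM in adipose tissue, 32.7, 31.9, 27.2 and 29.1 in liver, and 29.98, 31.0, 30.5 and 28.7 in muscle, with an overall range of 19.7 to 75.4. Mcm2 had medians of 5.60, 6.01, 5.99 and 5.88 CPM in adipose tissue, 3.85, 4.65, 3.82 and 5.52 in liver, and 9.84, 8.59, 10.6 and 11.2 in muscle. Mcm5, another helicase subunit, had medians of 4.37, 2.79, 5.52 and 5.01 CPM in adipose tissue and between 0.869 and 1.73 in the 8 groups of liver and muscle. Rrm2 had medians of 2.55, 1.93, 3.54 and 2.61 CPM in adipose tissue, 8.95, 12.1, 3.47 and 7.67 in liver, and 1.58, 2.28, 0.970 and 1.02 in muscle. Its liver libraries at 5 months spanned 3.18 to 20.0 CPM in WT, so that the WT groups of the 2 ages overlapped. Reads of Pcna and Ccnb1, and of Tyms and Ccnb2, may be split with their pseudogenes, and 20 of the 49 genes overlap another annotated gene.

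The tissues were compared in WT mice of 5 months, with limma on log2(CPM + 1), where the added 1 makes the fold of weakly expressed genes too small. In this fit 47 of the 49 genes passed the filter on low values (Bub1 and Ttk did not), and a gene is called at a Benjamini-Hochberg adjusted p under 0.05 over all 15676 genes fitted.

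Adipose tissue was higher than liver for 36 of the 49 genes and lower for 4. Of all genes 68.1% were called in this comparison and 36.2% were higher in adipose tissue. The median log2 fold change over all 49 genes, fitted with no filter, was 0.61 for the replication genes and 0.93 for the mitotic genes. With no filter the median over all genes was 0.01, and over the 15676 genes that passed the filter 0.08. Anln, the actin-binding protein anillin of the cleavage furrow, was at 8.53 to 22.9 CPM in adipose tissue (median 11.9) and at 0.578 to 1.999 in liver (median 0.979), and these ranges were apart (log2 fold change 2.69, SE 0.237, adjusted p 8.95e-12). Mcm6, a subunit of the helicase, was at 11.1 to 34.4 CPM against 2.24 to 4.76 (1.88, SE 0.212). The log2 fold changes of Mki67, Top2a, the helicase factor Gins2, the checkpoint kinase Bub1b, Racgap1 of the cytokinetic ring and the spindle bundler Prc1 were between 1.51 and 1.84. The 4 genes lower in adipose tissue were Cks2, a subunit of CDK complexes (-2.20, SE 0.279), and 3 genes of nucleotide supply, Tk1 (-2.05, SE 0.445), Rrm2 (-1.21, SE 0.445) and Tyms (-0.48, SE 0.214). Cks2 was at 9.88 to 20.3 CPM in liver and at 1.19 to 5.94 in adipose tissue, without overlap. Tk1 was at 7.32 to 34.8 CPM in liver and, apart from W5F5006, at no more than 3.60 in adipose tissue. Tyms was not called by edgeR (adjusted p 0.217). By role, all 8 chromosome and spindle genes, both mitotic transcription factors (Foxm1 and Mybl2) and 7 of 9 licensing and helicase genes were higher in adipose tissue, while the 5 genes of nucleotide supply and the clamp were split into 2 higher and 3 lower.

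Adipose tissue was higher than muscle for 39 of the 49 genes and lower for 1. Of all genes 66.5% were called and 38.1% were higher in adipose tissue. The medians over all 49 genes were 0.95 (replication) and 1.22 (mitotic), beside 0.01 over all genes with no filter. Over all genes that passed the filter the median was 0.18. E2f1, the transcription factor that starts the S phase program, was at 2.72 to 17.1 CPM in adipose tissue and at 0.0821 to 0.686 in muscle (log2 fold change 2.52, SE 0.320, adjusted p 2.97e-08). Mki67 (2.22), Top2a (2.19), Nek2 (2.15), Gins2 (2.08) and Anln (2.01) came next, and Tyms, Ccna2 (cyclin A), Bub1b and Mcm5 lay between 1.55 and 1.91. By role, 8 of 9 cyclins and kinases, 8 of 9 licensing and helicase genes and all 4 centromere and passenger genes were higher in adipose tissue. The gene that was lower was Rrm1, at 10.8 to 36.3 CPM (median 13.9) in adipose tissue and 28.5 to 49.4 (median 35.1) in muscle, where only W5F5006 reached the muscle range (log2 fold change -1.11, SE 0.221, adjusted p 5.12e-05).

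Between liver and muscle the 49 genes were split, with 9 higher in liver and 7 higher in muscle, where 69.6% of all genes were called and 34.3% were higher in liver. Cks2 had a log2 fold change of 3.42 (SE 0.279), and its 6 liver libraries stood at 9.88 CPM or more while no muscle library passed 0.618. Nek2 (2.52), Tyms (2.38), Tk1 (2.29), the origin licensing factor Cdt1 (1.54), Rrm2 (1.44) and E2f1 (1.28) were also higher in liver. Rrm1 (-1.76, SE 0.221), the spindle factor Tpx2 (-1.46, SE 0.366), Ccne2 (cyclin E2, -1.19) and Mcm2 (-1.08, SE 0.262) were higher in muscle. Mcm2 was at 7.06 to 11.6 CPM in muscle and 3.28 to 5.88 in liver, with no overlap, and between adipose tissue and muscle it was not called (-0.51, SE 0.262, adjusted p 0.0855). The subunits of ribonucleotide reductase thus went opposite ways, Rrm1 toward muscle and Rrm2 toward liver.

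Scaling to 1 M recovered reads moves the median of all genes fitted from 0.08 to 0.94 between adipose tissue and liver and from 0.18 to 0.82 between adipose tissue and muscle, because the deposited scale is lowest in adipose tissue. The genes called were then 42 higher and 2 lower, and 40 higher and 0 lower, and the medians of the members fitted were 1.59 and 1.70. On that scale Rrm2 and Tyms were not among the genes called lower in adipose tissue than in liver, and Rrm1 was not called lower than in muscle. Without W5F5006 the counts were 29 higher and 5 lower against liver, 38 and 3 against muscle, and 13 and 7 for liver against muscle. The shares of all genes called on the scale of recovered reads and without W5F5006 are not given here. These counts alone do not set the members apart from other genes.

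Sequences upstream of 5 genes are shown because the S phase and mitotic waves are read through different short elements. Whether these elements bear on the levels in K18S48 was not tested. Ube2c, Ccnb2 and Cdk1 are mitotic genes that were high in both libraries that stand apart. So were nearly all mitotic genes: 30 of 31 in W5F5006 and 31 of 31 in K18S48 were above the rest of the group. Ube2c, Ccnb2 and Cdk1 each hold a CHR match, whereas Birc5, Plk1 and Bub1, high in both as well, hold none in their windows. The sequences shown are therefore examples and not typical of the mitotic genes. Mcm6 was the replication gene that stood furthest above liver in adipose tissue, and Rrm1 was not raised in K18S48. Each line gives the 250 bases before the annotated start of transcription in the direction of the gene, from RefSeq on GRCm38.p6, in lower case with the matches in capitals. The motifs searched on both strands were CHR (TTTGAA), the CCAAT box (CCAAT, read ATTGG on the other strand), E2F (TTTCCCGC, TTTGGCGC or TTTCGCGC) and the E-box to which MYC binds (CACGTG); overlapping E2F matches form 1 run of capitals.
Cdk1, chr10:69352913-69353162 (minus strand): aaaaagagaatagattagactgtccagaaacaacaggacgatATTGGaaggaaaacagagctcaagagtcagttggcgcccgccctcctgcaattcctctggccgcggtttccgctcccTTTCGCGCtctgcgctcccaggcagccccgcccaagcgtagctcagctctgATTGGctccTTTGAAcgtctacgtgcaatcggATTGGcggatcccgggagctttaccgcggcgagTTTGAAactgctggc
Ccnb2, chr9:70421555-70421804 (minus strand): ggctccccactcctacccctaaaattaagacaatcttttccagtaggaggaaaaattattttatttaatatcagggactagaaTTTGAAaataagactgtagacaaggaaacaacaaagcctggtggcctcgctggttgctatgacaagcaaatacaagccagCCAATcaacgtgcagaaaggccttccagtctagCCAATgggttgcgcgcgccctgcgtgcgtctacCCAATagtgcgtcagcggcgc
Ube2c, chr2:164769679-164769928 (plus strand): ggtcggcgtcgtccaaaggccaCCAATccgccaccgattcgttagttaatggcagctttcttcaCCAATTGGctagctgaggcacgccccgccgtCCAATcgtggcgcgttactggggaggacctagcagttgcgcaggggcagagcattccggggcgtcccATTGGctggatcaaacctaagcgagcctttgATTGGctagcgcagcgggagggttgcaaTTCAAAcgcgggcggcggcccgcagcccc
Mcm6, chr1:128359706-128359955 (minus strand): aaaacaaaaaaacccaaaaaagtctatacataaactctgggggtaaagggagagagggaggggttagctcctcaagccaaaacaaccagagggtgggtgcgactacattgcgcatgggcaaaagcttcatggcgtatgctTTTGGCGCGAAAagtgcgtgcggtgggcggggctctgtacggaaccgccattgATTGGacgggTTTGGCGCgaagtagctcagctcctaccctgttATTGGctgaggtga
Rrm1, chr7:102441445-102441694 (plus strand): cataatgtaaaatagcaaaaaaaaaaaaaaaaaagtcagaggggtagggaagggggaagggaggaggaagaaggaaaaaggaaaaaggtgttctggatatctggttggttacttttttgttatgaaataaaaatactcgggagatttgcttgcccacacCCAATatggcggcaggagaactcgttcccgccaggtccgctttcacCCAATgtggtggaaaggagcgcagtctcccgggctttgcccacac
The window of Cdk1, the mitotic kinase, held 2 CHR, 3 CCAAT and 1 E2F match. Ccnb2 held 1 CHR and 3 CCAAT matches, and Ube2c, the ubiquitin-conjugating enzyme that helps destroy cyclin B, held 1 CHR and 6 CCAAT matches. Mcm6 held 2 CCAAT and 3 E2F matches and no CHR, and Rrm1 2 CCAAT matches alone. A promoter was used for 41 of the 49 genes. CHR was found in 8 of 26 mitotic promoters (30.8%), 1 of 15 replication promoters (6.67%) and 16.3% of 27025 promoters of the same length. The CCAAT box was found in 22 mitotic (84.6%) and 9 of 15 replication promoters, against 34.5% of all, and E2F in 1 (3.85%) and 4 (26.7%), against 1.59%. The E-box was found in 2 mitotic (7.69%) and 1 replication promoter (6.67%), near the share of 6.04% over all promoters. A match describes these letters only.

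With all libraries, limma called none of the 49 genes between KO and WT in any tissue at either age. In adipose tissue at 5 months limma called 0 of the 48 genes that passed the filter, with 9 at an unadjusted p under 0.05. Of all 14286 genes there, 1692 had an unadjusted p under 0.05. Limma called 0.105% of all genes, edgeR called 0 of the 49 and DESeq2 called Anln alone (-0.97, adjusted p 0.0163). Over all 49 genes fitted with no filter, 48 were lower in KO. The median log2 fold change was -0.28 for the replication genes and -0.43 for the mitotic genes, beside 0.01 over all genes with a read. Over the 14286 genes that passed the filter the median was -0.04. Mki67 was at 3.25 to 35.1 CPM in WT (median 5.80) and at 2.51 to 8.79 in KO (median 3.24). Mcm5 was at 3.01 to 21.5 CPM in WT (median 4.37) and at 2.32 to 4.59 in KO (median 2.79). Both pairs of groups overlapped. The smallest unadjusted p belonged to Anln and to Kif20a, a kinesin of the midbody. Anln was at 17.3, 22.9, 8.53, 11.3, 12.5 and 8.61 CPM in WT and at 4.34, 6.51, 6.79, 4.59, 10.7 and 6.45 in KO, where K5F5218 with 10.7 CPM reached into the WT range (log2 fold change -0.91, SE 0.220, adjusted p 0.125 in limma). Kif20a had a median of 2.30 CPM in WT and 1.41 in KO (-0.68, SE 0.267, adjusted p 0.345).

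The shift depended on W5F5006. Without it 12 of 31 mitotic and 6 of 18 replication genes were higher in KO, the medians over all 49 genes were -0.15 and -0.17, and no member was called, with 0.014% of all genes called. Without the Xist libraries, a choice that keeps W5F5006, all 49 genes were lower in KO with medians of -0.65 (mitotic) and -0.41 (replication). Limma then called Anln (-1.005, adjusted p 0.0444), E2f1 (-1.58, adjusted p 0.0480) and Ccne1, cyclin E1 (-1.10, adjusted p 0.0489), with 3.69% of all genes called. Without both the Xist libraries and W5F5006 no member was called (0.22% of all genes), and the medians were -0.23 and -0.14. Leaving out K5F5218 alone brought Anln to -1.04 with an adjusted p of 0.0409. Without the 4 libraries with epididymis markers no member was called, and the medians were -0.61 and -0.41.

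In adipose tissue at 20 months limma called 0 of the 49 genes and 0% of all genes, and edgeR and DESeq2 called 0. In limma 0 of the 48 members fitted had an unadjusted p under 0.05, beside 321 of all 14286 genes. The medians over all 49 were -0.13 (replication) and -0.09 (mitotic). E2f2, another activating E2F, had a log2 fold change of -0.57 (SE 0.350) and Pcna, the sliding clamp, of 0.29 (SE 0.227), both with an adjusted p of 1.0 in limma. Pcna was at 33.1, 44.0, 52.9, 36.0 and 34.2 CPM in WT and at 56.1, 55.5, 36.8, 42.6 and 54.9 in KO. The KO libraries at 54.9 CPM or more stood above every WT library, and the groups overlapped. Mki67 had medians of 14.3 CPM in WT (8.13 to 18.8) and 10.8 in KO (3.92 to 19.7), and Cdk1 of 3.33 (1.53 to 4.42) and 2.92 (2.02 to 3.84).

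In liver at 5 months limma called 0 of the 29 genes that passed the filter and 0.0696% of all 12924 genes. EdgeR and DESeq2 called 0 members. In limma 1 member had an unadjusted p under 0.05, beside 897 of all genes. Over all 49 genes 20 were higher in KO and 29 lower, with medians of 0.02 (replication) and -0.08 (mitotic). Mcm2 was at 3.28 to 5.88 CPM in WT (median 3.85) and at 2.86 to 12.4 in KO (median 4.65), and Top2a at 0.617 to 1.70 and 0.684 to 2.01. Nek2 was at 1.85 to 13.0 CPM in WT and 7.55 to 17.8 in KO (0.72, SE 0.338, adjusted p 0.707), and its low values were those of the WT Xist libraries, 2.33 and 1.85 CPM. Cenpa, the histone of the centromere, was at 1.59 to 5.16 and 2.90 to 5.06 CPM (0.38, SE 0.195, adjusted p 0.740).

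At 20 months in liver limma called 0 members and 0.0232% of all genes, and edgeR and DESeq2 called 0. The unadjusted p of limma was under 0.05 for 3 of 29 members, beside 750 of all 12924 genes. Rrm2, the small subunit of ribonucleotide reductase, was at 3.90, 3.47, 2.74, 1.91 and 5.47 CPM in WT and at 5.49, 7.97, 10.6, 7.67 and 5.83 in KO. Every KO library stood above every WT library, the closest at 5.49 and 5.47 CPM, yet the difference did not pass the adjustment (limma, 0.94 on the log2 scale, SE 0.438, adjusted p 0.841). In the younger mice Rrm2 ranged from 3.18 to 20.0 CPM in WT and from 3.21 to 19.0 in KO, with the WT Xist libraries highest in WT at 20.0 and 18.1 CPM. Cdk1 was at 0.715 to 1.48 CPM in WT and 0.146 to 0.924 in KO (-0.40, SE 0.181, adjusted p 0.840). Over all 49 genes 25 were higher in KO and 24 lower.

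In muscle at 5 months limma called 0 of the 26 genes that passed the filter and 0% of all 13237 genes. EdgeR and DESeq2 called 0 members. In limma 1 member had an unadjusted p under 0.05, beside 543 of all genes. The medians over all 49 genes were 0.05 (replication) and 0.10 (mitotic). Without the Xist libraries they were 0.11 and 0.26, with 26 of 31 mitotic genes higher in KO. Without the libraries with granulocyte precursor markers they were -0.002 and -0.0002, with 15 of 31 higher. Cenpa had a log2 fold change of 0.65 (SE 0.294) and Cdt1 of 0.45 (SE 0.267), both with an adjusted p of 1.0. Cdt1 was at 1.92, 3.03, 1.33 and 1.79 CPM in the 4 KO libraries and at 0.414 to 2.13 in WT. At 20 months limma called 0 members and 0.0302% of all genes. Its unadjusted p was under 0.05 for 2 members, beside 1821 of all 13237 genes. EdgeR and DESeq2, which called 0, had 7 and 8 members at an unadjusted p under 0.05. The counts over all genes in these fits are not given here, so the 7 and 8 do not set the members apart. Bub1b was at 0.203, 0.424, 1.22, 0.400 and 0.914 CPM in WT and at 3.17, 1.14, 1.73, 0.927 and 1.40 in KO (0.69, SE 0.223, adjusted p 0.295), and the groups overlapped. Aurka, the centrosome kinase Aurora A, was at 5.01, 6.67, 4.58, 6.45 and 6.90 CPM in WT and at 4.78, 2.09, 2.15, 3.60 and 4.13 in KO (-0.70, SE 0.238, adjusted p 0.295). For Aurka K18S48, at 4.78 CPM, was the single KO library inside the WT range. The median of the 31 mitotic genes was 0.33, with 27 higher in KO, and without K18S48 it was 0.00, with 16 higher.

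**Figure D4:**
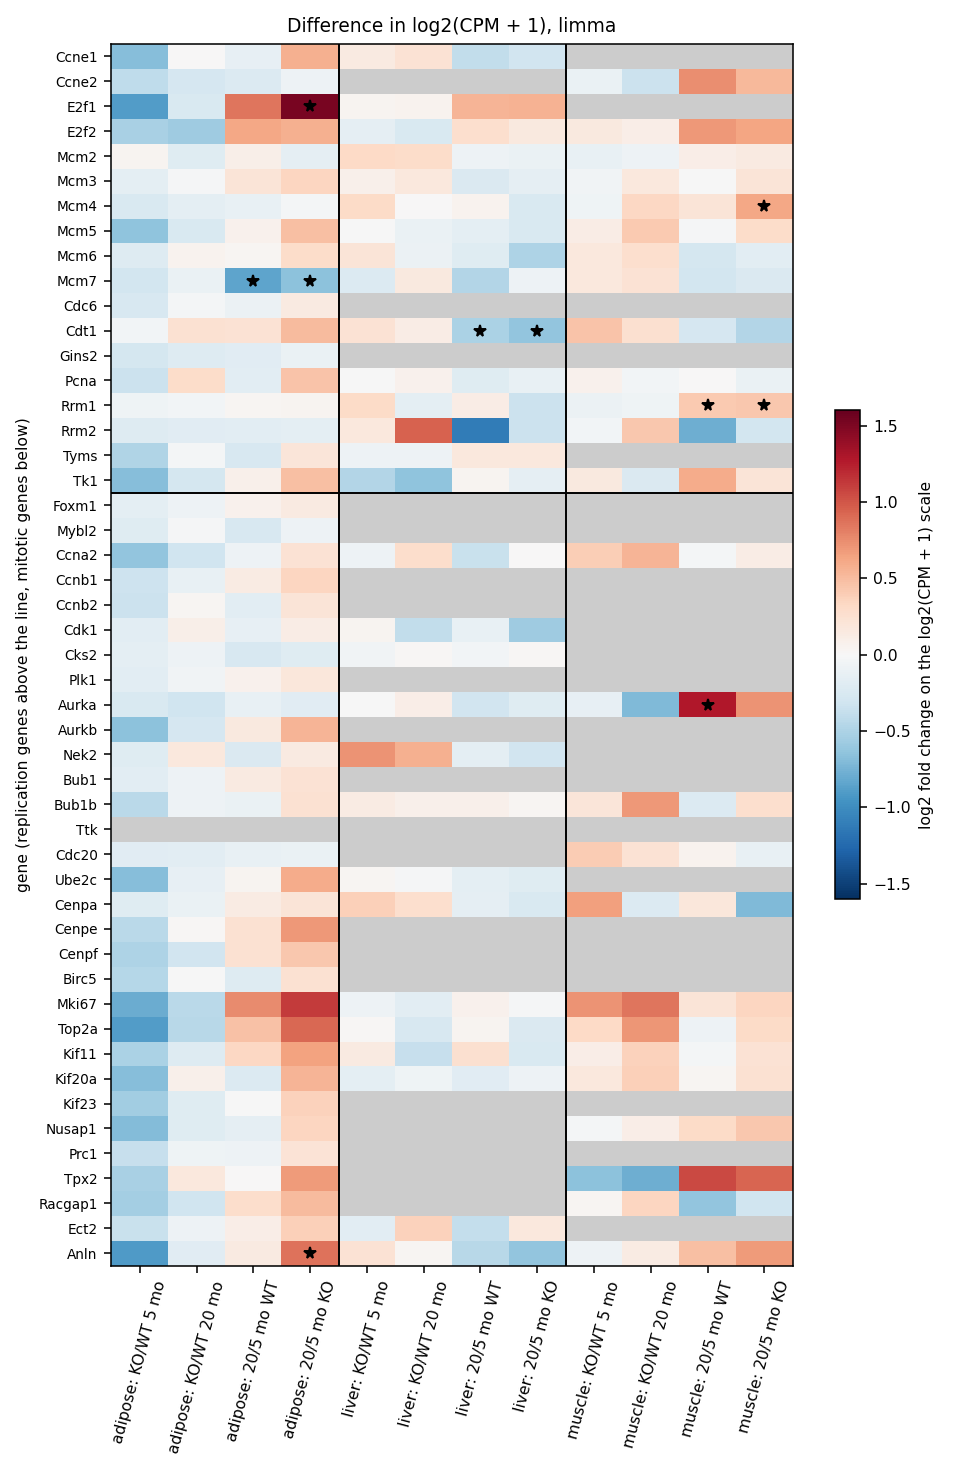
Log2 fold changes on the log2(CPM + 1) scale of the 49 genes (replication above the line, mitotic below) in 12 comparisons, 4 per tissue; grey marks genes under the filter and stars mark an adjusted p under 0.05 in limma. The column of KO against WT in adipose tissue at 5 months is mostly blue (medians -0.28 and -0.43), and the stars all lie in the columns of ageing.

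Between 5 and 20 months limma, with all libraries, called Mcm7, E2f1 and Anln in adipose tissue, Cdt1 in liver, and Aurka, Rrm1 and Mcm4 in muscle. DESeq2 called more members in liver (3 in WT, 2 in KO) and in KO muscle (4). For DESeq2 and most fits without 1 library the share over all genes is not given. Their counts show only how the calls moved. The ageing comparisons of a tissue share the fit, and those of KO and of WT use separate libraries. In WT adipose tissue, where 10.8% of all genes were called, limma called 1 member. This was Mcm7 (chr5:138164583-138172111), a helicase subunit, with a log2 fold change of -0.84 (limma, SE 0.181, adjusted p 0.00669). It was at 28.4 to 40.4 CPM at 5 months (33.4 ± 5.06, SD, n = 6) and at 19.1, 17.0, 17.1, 20.4 and 16.8 CPM at 20 months (18.1 ± 1.57, n = 5). The ages did not overlap. The medians over all 49 genes were -0.03 (replication) and 0.04 (mitotic). These medians depended on the libraries kept: without W5F5006 they were 0.21 and 0.30, with 28 of 31 mitotic genes higher at 20 months, and without the Xist libraries -0.11 and -0.21, with 27 of 31 lower. The introns of Mcm7 hold Mir25, Mir93 and Mir106b, and its span overlaps Ap4m1, so reads of these genes may be counted together with it.

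In KO adipose tissue, with 14.2% of all genes called, limma called 3 members. Mcm7 fell by 0.65 (SE 0.181, adjusted p 0.0228), from 17.3 to 43.8 CPM (28.1 ± 9.87, n = 6) to 13.5, 18.4, 20.5, 16.6 and 15.1 CPM (16.8 ± 2.73, n = 5), and the ages overlapped. E2f1 (chr2:154559400-154569892) rose by 1.52 (SE 0.415, adjusted p 0.0218), from 1.46 to 6.54 CPM (3.87 ± 2.10) to 16.3, 15.2, 3.79, 18.3 and 12.3 CPM (13.2 ± 5.67). Only K18F28, at 3.79 CPM, lay in the range of the younger libraries. Anln (chr9:22331214-22389211) rose by 0.87 (SE 0.231, adjusted p 0.0192), from 6.56 ± 2.28 CPM to 11.9, 12.5, 7.93, 16.8 and 14.1 CPM (12.6 ± 3.25), where again K18F28 was the lowest. Reads of Necab3, which overlaps E2f1, and of 9530077C05Rik, which overlaps Anln, may enter these values. The calls lay near the threshold: without K18F29, K18F30 or K5F4284 none of the 3 was called and without K18F26 only Anln was, with adjusted p of 0.0515 to 0.0766 and folds close to those above (E2f1 1.34 to 1.503, Anln 0.76 to 0.82, Mcm7 -0.65 to -0.58). Without K18F28 5 members were called. Over all 49 genes 39 were higher at 20 months, with medians of 0.24 (replication) and 0.28 (mitotic). The medians of the lymphocyte marker sums were also higher in the older adipose libraries. The T cell sum was 5.48 to 14.8 CPM in WT at 5 months and 16.9 to 65.5 at 20 months, with no overlap, and 15.2 to 26.1 and 20.8 to 31.0 CPM in KO. The median of the B and plasma cell sum was 62.6 and 157 CPM in WT and 83.8 and 139 CPM in KO. Its ranges overlapped between the ages, at 27.04 to 114 and 88.4 to 395 CPM in WT and 35.7 to 114 and 51.5 to 170 in KO. The part of these cells in the levels of the 49 genes was not tested.

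In WT, E2f1 was at 2.72 to 17.1 CPM at 5 months (8.91 ± 6.13) and at 11.04, 13.5, 17.9, 15.4 and 13.6 CPM at 20 months (14.3 ± 2.55), and it did not pass the test (limma, 0.86, SE 0.415, adjusted p 0.165). The ages overlapped, since W5F5277 and W5F5006 at 5 months stood at 17.1 and 15.2 CPM. W5F5006 bears on the calls in WT: without it limma called 3 members, Mcm7 (-0.81, adjusted p 0.0121), E2f2 (0.95, adjusted p 0.0235) and Mki67 (1.18, adjusted p 0.0339), with 11.9% of all genes called. In KO, Mki67 was then called as well (1.11, adjusted p 0.0324), beside the same 3 members, with 14.5% of all genes called. Mki67 stood at 3.25 to 8.86 CPM in the other 5 WT libraries of 5 months and at 8.13 to 18.8 in the WT libraries of 20 months. Without both the Xist libraries and W5F5006 Mcm7 was not called in WT (-0.66, adjusted p 0.122). All the epididymis-bearing libraries are from the 5-month groups, and without them Mcm7, E2f1 and Anln were called as before.

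In liver Cdt1 (chr8:122568015-122573130), which loads the helicase onto origins, fell with age in both genotypes. In WT, with 7.19% of all genes called, it went from 4.59 to 6.49 CPM (5.32 ± 0.689, n = 6) to 4.16, 3.06, 4.58, 3.33 and 2.29 CPM (3.48 ± 0.905, n = 5), a fall of 0.51 (SE 0.137, adjusted p 0.0262). In KO, with 2.99% of all genes called, it went from 5.33 to 7.68 CPM (6.43 ± 0.906) to 3.29, 3.68, 3.33, 4.24 and 4.52 CPM (3.81 ± 0.551), a fall of 0.63 (SE 0.137, adjusted p 0.0185). The ages did not overlap in either genotype, though in WT they nearly met at 4.59 and 4.58 CPM. Scaling to 1 M recovered reads moves the median of all genes fitted to 0.17 in WT and 0.15 in KO, and Cdt1 was then not called (-0.32, adjusted p 0.157, and -0.43, adjusted p 0.0866). Leaving out single libraries lost the WT call for W18L02, W18L04, W18L05 or W5L5041 (adjusted p 0.0550 to 0.0912) and the KO call for K18L06 (adjusted p 0.0541). Without the Xist libraries the WT call was lost (-0.49, adjusted p 0.0915), while in KO Cdt1 was kept and Cdk1 was called lower (-0.64, adjusted p 0.0490), with 4.45% of all genes called. Leaving out W5L5277 or W5L5299 gave 3 and 2 WT calls. The medians over all 49 genes were -0.07 (replication) and -0.14 (mitotic) in WT and -0.13 and -0.04 in KO.

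In muscle of WT mice Aurka (chr2:172356190-172370886) rose by 1.29 (SE 0.227, adjusted p 0.00228), the largest change with age among the called members of WT mice. It went from 0.821 to 3.52 CPM (1.94 ± 0.965, n = 6) to 5.01, 6.67, 4.58, 6.45 and 6.90 CPM (5.92 ± 1.05, n = 5), and the ages did not overlap. Rrm1 (chr7:102441695-102469771) rose by 0.41 (SE 0.108, adjusted p 0.0145), from 28.5 to 49.4 CPM (36.4 ± 6.996) to 44.6, 51.6, 47.1, 44.5 and 53.8 CPM (48.3 ± 4.20), with a single younger library, W5S5277 at 49.4 CPM, in the older range. Of all genes 18.6% were called in this comparison. Both genes were called whichever single library of muscle was left out, and without W5S5277 5 members were called. Without the Xist libraries Aurka stayed (1.11, adjusted p 0.0152) and Rrm1 did not (0.40, adjusted p 0.0623), with 7.23% of all genes called. Aurka overlaps Cstf1, a gene of messenger RNA 3' end cleavage, and strand use in the counting is not stated, so reads of Cstf1 may enter its value. Of the 9 cyclins and kinases only Aurka and Ccna2 passed the filter in muscle, and Ccna2 stood at -0.03 on the log2 scale (limma, SE 0.351, adjusted p 0.963). The median over all 31 mitotic genes was 0.03 and over the 18 replication genes 0.09.

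In muscle of KO mice limma called 2 members, with 5.57% of all genes called. Mcm4 (chr16:15623897-15637400), a helicase subunit, rose by 0.62 (SE 0.172, adjusted p 0.0424), from 4.34, 6.29, 4.82 and 5.25 CPM (5.17 ± 0.833, n = 4) to 8.51, 6.92, 9.61, 10.3 and 7.09 CPM (8.49 ± 1.503, n = 5). Rrm1 rose by 0.43 (SE 0.119, adjusted p 0.0390), from 31.5, 31.2, 34.2 and 38.4 CPM (33.8 ± 3.33) to 45.3, 47.1, 42.5, 49.3 and 45.7 CPM (46.0 ± 2.51). Neither gene overlapped between the ages. K18S48 was not the highest library for either, but the fit without it changed the calls: Mcm4 and Rrm1 missed the threshold with nearly the same fold changes (0.61, adjusted p 0.0601, and 0.44, adjusted p 0.0539), and Cenpa was called lower (-0.97, adjusted p 0.0414), with 5.06% of all genes called. In WT that fit added Racgap1, a fall of 0.64 (adjusted p 0.0211), to Aurka and Rrm1, with 18% of all genes called. None was called without K18S63, K18S64, K5S4284, K5S5116 or W18S45, and 1 was without K18S61, K5S4285, K5S5118 or W18S66, and without K18S62 Mcm4 was not called (adjusted p 0.0752). The mitotic median over all 31 genes was 0.24 and without K18S48 -0.18, with 26 and then 8 genes higher at 20 months. Without the 3 libraries with granulocyte precursor markers Mcm4 (0.54, adjusted p 0.196) and Rrm1 (0.41, adjusted p 0.173) kept similar folds and missed the threshold in KO, and Aurka, Rrm1 and Racgap1 were called in WT.

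**Figure D5:**
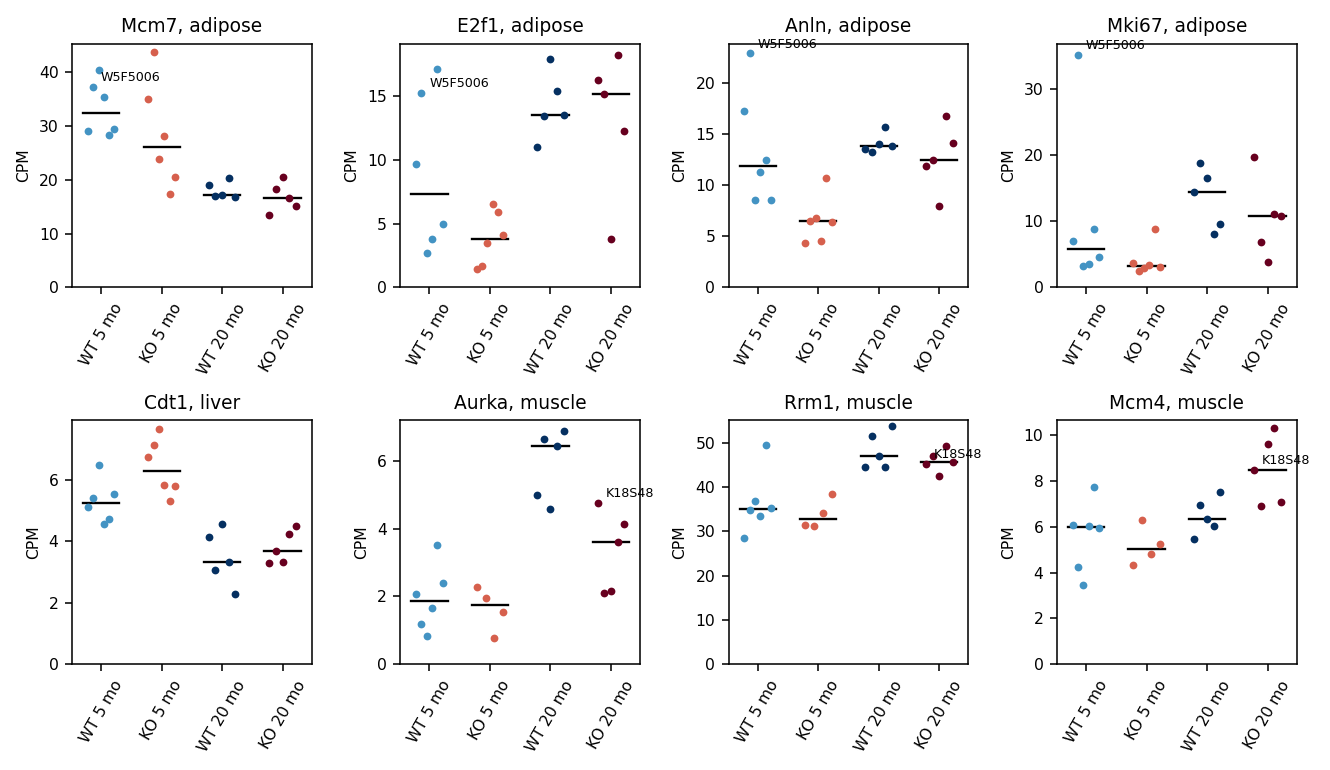
CPM by library (points) with group medians (bars) for the 7 members called with age and for Mki67 in adipose tissue, in the tissue where each was called; each axis starts at 0. For Aurka in muscle the 5 WT libraries of 20 months (4.58 to 6.90 CPM) lie above all WT libraries of 5 months, and for Mcm7 in adipose tissue they lie below (16.8 to 20.4 CPM).

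Whether the effect of the knockout differed between the ages was tested as an interaction. Limma called 0 of the 49 genes and 0% of all genes in each tissue. In each, 1 member had an unadjusted p under 0.05. Over all genes this held for 407 of 14286 in adipose tissue, 507 of 12924 in liver and 438 of 13237 in muscle. EdgeR and DESeq2 called 0. In adipose tissue the lowest unadjusted p values were those of Anln (0.73, SE 0.327, adjusted p 0.998) and Pcna (0.63, SE 0.307), in liver those of Kif11, the spindle motor Eg5 (-0.51, SE 0.242, adjusted p 0.991), and Rrm1 (-0.46, SE 0.248), and in muscle those of Cenpa (-0.88, SE 0.411, adjusted p 0.999) and Mcm4 (0.41, SE 0.232). A gene called with age in KO and not in WT, such as E2f1 and Anln in adipose tissue or Mcm4 in muscle, is thus not shown to age differently in the 2 genotypes.

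The effect of the knockout at 5 months was also compared between tissues, and limma called 0 of the 47 members fitted and 0% of all genes in each pair, as did edgeR and DESeq2 for the members. At an unadjusted p under 0.05 there were 5 members for adipose tissue against liver, 9 for adipose tissue against muscle and 0 for liver against muscle. Over all 15676 genes the counts were 942, 757 and 189 in the same order. Anln had the lowest p for adipose tissue against liver (difference of log2 fold changes -1.13, SE 0.335, adjusted p 0.517), followed by Ccne1 (-0.83, SE 0.376). Against muscle they were Aurkb, the kinase of the chromosomal passenger complex (-0.93, SE 0.325, adjusted p 0.949), and Mki67 (-1.51, SE 0.541). For liver against muscle they were Cdc20, the activator of the anaphase-promoting complex (-0.69, SE 0.447), and Mki67 (-0.80, SE 0.541), with an adjusted p of 1.0. Each tissue's libraries enter 2 of the 3 pairs, and W5F5006 is among those of both pairs with adipose tissue.

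Other genes of the pathway, 38 of replication, 56 of mitosis and 19 of the G1 phase with the pocket proteins that hold E2F in check, gave no call between KO and WT in any tissue. With age 5 of the 100 that passed the filter were higher and 2 lower in KO adipose tissue (7% called, beside 14.2% of all genes), and 2 and 2 in WT adipose tissue (4%, beside 10.8%). In WT liver 0 and 2 of 69 were called (2.9%, beside 7.19%), in WT muscle 7 and 2 of 68 (13.2%, beside 18.6%) and in KO muscle 1 and 1 (2.94%, beside 5.57%). These shares lie below those over all genes. With age in adipose tissue Fam83d, which positions the mitotic spindle, rose in both genotypes, by 1.08 in WT (adjusted p 0.0282) and 1.38 in KO (adjusted p 0.00658). Rb1, the retinoblastoma protein, rose by 0.75 (adjusted p 0.00780) and 0.76 (adjusted p 0.00681), from 37.7 ± 6.04 to 63.8 ± 6.10 CPM in WT. In WT the subunit Cks1b of CDK complexes and the G1 kinase Cdk4 fell by 0.68 and 0.61 (adjusted p 0.0377 and 0.0242), and in KO Cdc7, the kinase that fires origins, rose by 0.90 (adjusted p 0.0138). In liver of WT mice Ccnd3 (cyclin D3) fell by 0.61 (adjusted p 0.0443) and Cdk4 by 0.42 (adjusted p 0.0243), and in KO 0 of the 3 lists' genes were called. In muscle of WT mice Rbl1, a pocket protein, rose by 0.92 (adjusted p 0.00823), Lin9 of the MuvB core that binds CHR elements by 0.82 (adjusted p 0.0265) and the kinesin Kif18a by 0.73 (adjusted p 0.0435). In muscle of KO mice Ccnd3 fell by 0.69 (adjusted p 0.0265) and Rb1 rose by 0.33 (adjusted p 0.0292).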

How the data were processed

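Poly(A)-selected RNA was sequenced as directional libraries, per the labels' protocols. The authors deposited 1 table with a column per library headed CPM, exported from CLC Genomics per the file headers. Its values are a signal, whole read counts times 1 factor per library: 100.0% of the deposited values were whole reads within 0.02 reads, and column sums differ from 1 M. The submitters' processing notes name GRCm38.p6 and mm10. The aligner, gene models and strand setting of the counting are not given in the sources used here. Of 36332 gene IDs, 35336 matched a gene symbol in the reference tables.

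Genes over 1 CPM in at least 5 libraries of adipose tissue or liver (4 in muscle and in the fit over tissues at 5 months) were fitted as log2(CPM + 1) with limma 3.58.1 in R 4.3.3, 1 model per tissue over its 4 groups and 1 over the 5-month libraries, with Benjamini-Hochberg adjustment over all genes. This passed 48 of the 49 genes in adipose tissue, 29 in liver, 26 in muscle and 47 in the fit over tissues. Gene counts recovered from the deposited table gave edgeR 4.0.16 and DESeq2 1.42.0 as alternatives. Python 3.11.15, pandas 2.3.3 and matplotlib 3.10.9 were used for the rest, and the fits were tested on simulated data. Reads per library are 15.4 to 28.5 M, and 1 read is 0.0204 to 0.0882 CPM.

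The members, lists and tests were chosen with earlier results of these data known. Named are 8 index genes (Mki67, Top2a, Ccnb1, Cdk1, Mcm2, Mcm5, Pcna and Rrm2), called members (at most 10 per comparison by fold), or the 2 with the lowest p where none was called, Myc, and at most 3 called genes per comparison from the other lists, with Cdk4 in adipose tissue added after its value was seen. Leaving out libraries by epididymis or granulocyte markers, or by Xist together with W5F5006, was chosen after seeing the data.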

Additional observations from a re-analysis of the deposited data

Results flagged for a closer look

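For the summed levels, the 8 index genes and, in their own tissue, the members called with age, 148 sets of values (1 quantity in 1 group) were examined. Dixon's criterion was used to find a library far from the rest of its group, and 33 sets had one, always on the high side. Its nominal rate of about 1 in 20 is no reference here. The sets share libraries and genes, many hold low values, and 9 flags were of W5F5006 and 8 of K18S48. In WT adipose tissue of 5 months W5F5006 stood apart for the replication sum (360.2 CPM), the mitotic sum (332.8), Mki67 (35.1), Top2a (30.7), Ccnb1 (7.60), Cdk1 (10.9), Mcm2 (17.5), Mcm5 (21.5) and Rrm2 (12.1). In KO muscle of 20 months K18S48 stood apart for the replication sum (184.6 CPM), the mitotic sum (159.0), Mki67 (36.9), Top2a (12.9), Ccnb1 (2.30), Cdk1 (2.48), Mcm5 (5.15) and Rrm2 (9.25).

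In KO adipose tissue of 5 months K5F5218 stood apart for the mitotic sum (89.8 CPM), Mki67 (8.79) and Top2a (5.38), and K5F5118 for Cdk1 (8.14). In WT muscle W5S5007 stood apart at 5 months for Mki67 (1.48 CPM), Top2a (1.36), Ccnb1 (0.678) and Rrm2 (8.88), and W18S45 at 20 months for Mki67 (6.035) and Top2a (1.86). In liver the libraries were W5L5299 for Mcm2 (5.88 CPM), W18L03 for Mki67 (3.29) and Top2a (1.675), K18L09 for Top2a (1.18), K18L06 for Ccnb1 (0.513) and K18L08 for Mcm5 (2.30).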

How the results depend on the processing

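No single gene's called change reversed under the alternatives run, but medians over the lists did change sign when libraries were left out: with age in KO muscle the mitotic median went from 0.24 to -0.18 and the replication median from 0.17 to -0.03 without K18S48, for KO against WT in muscle at 20 months the replication median went from 0.13 to -0.06, and with age in WT adipose tissue the mitotic median went from 0.04 to -0.21 without the Xist libraries. In KO against WT in adipose tissue at 5 months (0 members called), DESeq2 called 1 and the fit without the Xist libraries 3. With age in WT adipose tissue (1 called) the fit without the Xist libraries and W5F5006 called 0. With age in KO liver (1 called) DESeq2 called 2, the fit without the Xist libraries 2 and scaling to 1 M recovered reads 0. With age in WT liver (1 called) DESeq2 called 3, and the fit with no filter, the one scaled to recovered reads and the one without the Xist libraries called 0. With age in KO muscle (2 called) DESeq2 called 4, and the fits with no filter, without the Xist libraries and without the granulocyte-marker libraries called 0. With age in WT muscle (2 called) the fit without the Xist libraries called 1. Scaled to 1 M recovered reads, the liver sums were 90.1 (replication) and 33.97 (mitotic), and the replication sums of adipose tissue and muscle 243.8 and 108.04.

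With 1 library left out at a time the members called ranged from 0 to 1 for KO against WT in adipose tissue at 5 months, 1 to 3 and 0 to 5 with age in WT and KO adipose tissue, 0 to 3 and 0 to 1 in WT and KO liver, 2 to 5 and 0 to 2 in WT and KO muscle. Between tissues they ranged from 34 to 41 (adipose tissue and liver), 39 to 41 (adipose tissue and muscle) and 15 to 20 (liver and muscle). The counts of this section come without a share over all genes and show only how the calls moved. 

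The same mouse numbers recur across tissues, but the labels do not say that they mark a mouse. Same-numbered libraries deviated together in 17 of 28 pairs (r over 0.1, median 0.124) and in 29 of 164 pairs of other numbers, and 19 of 28 libraries correlated best with their own number. With the number as a replicate block, 28 members were higher and 5 lower in adipose tissue than in liver, 38 and 3 against muscle, and 14 and 7 for liver against muscle, beside 36 and 4, 39 and 1, and 9 and 7 without it. Depth limits the genes near 1 CPM, above all the mitotic genes of muscle and liver, for which many libraries had few reads.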
